A study of Mus musculus with 11 samples.

Results

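The sham libraries of this series are the baseline against which its stroke libraries are read. They are the 3 sham libraries among 11 libraries of ribosome footprints, taken by their labels (replicates 1, 2 and 5), and what follows describes which of 4338 measured genes and which functions took most footprints in them. The cortex came from wildtype C57BL6 mice aged 7 to 8 weeks. Sham mice were anaesthetised with isoflurane and had their arteries exposed for the length of the operation, with no filament put in. No source used here tells from which side their cortex was taken. The other 8 libraries, used below only where the sham levels are set beside them, came from mice whose right middle cerebral artery was blocked by a filament for 35 min and then reopened for 3 h. Of these, 4 came from the contralateral cortex (replicates 1, 4, 5 and 6) and 4 from the ipsilateral cortex (replicates 2, 4, 5 and 6). The tissue entry of the ipsilateral samples names the other hemisphere, and their titles were followed. A replicate number stands for a day of surgery, and no source used here tells how many animals stand behind a library.

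A ribosome that is translating a messenger RNA shields a short stretch of it from nuclease, and the sequenced stretches, or footprints, count the ribosomes that sat on each transcript. The footprints of a gene depend on how much of its messenger RNA there is, how often ribosomes start on it, how fast they move and how long its coding sequence is. Cortex is made of neurons, which spend much energy on ion pumping and on transmitter release, and of glia, which supply them with metabolites and clear transmitter from the synapse. Here micrococcal nuclease was used on the tissue, purified monosomes were pulled down through the ribosomal protein P0, and the protected RNA was cut from a gel at 30 to 50 nt, although the library inserts are stated as 15 to 35 bp. Levels are given as counts per 1000000 (CPM) of a library's total with each gene counted once. Thus 10000 CPM is 1% of that total. Levels of different genes are compared as CPM per kilobase (kb) of coding length. No library of total RNA was analysed here, so the amount of a messenger RNA and its rate of translation cannot be told apart. In bulk cortex, more cells of a type and more RNA per cell cannot be told apart either.

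Among the genes with most footprints were some that encode the same protein as another gene, and their reads can be assigned to one of them only where the letters differ. As an example the first 90 coding bases are shown for Calm2 and Calm3, from the GENCODE vM21 transcripts of mm10, with the positions at which they differ in capitals.
Calm2: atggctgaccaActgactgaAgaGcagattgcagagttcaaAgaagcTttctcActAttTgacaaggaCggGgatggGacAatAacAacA
Calm3: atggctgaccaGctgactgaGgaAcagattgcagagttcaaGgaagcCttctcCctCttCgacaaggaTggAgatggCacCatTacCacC
Calm2 (chr17:87433412-87446935, minus strand) and Calm3 (chr7:16915379-16924114, minus strand) each encode calmodulin, the calcium sensor of neurons, and their translations of 149 residues were identical. Their coding sequences differed at 15 of the bases shown and at 78 of 447. Their longest identical run was 17 nt, shorter than the words of 28 nt that are used below to look for shared sequence. Aligned words of 28 nt therefore told Calm2 and Calm3 apart. Of its 28-nt words, Calm2 had 70.0% in transcripts of other genes (chiefly the copy Gm7308) and Calm3 31.9% (chiefly Gm5881).

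Depth set what could be seen. The sham totals were 256655 counts in replicate 1, 64461 in replicate 2 and 194996 in replicate 5, so 1 count was 3.90, 15.5 and 5.13 CPM, and the 3 counts that a count of 0 allows were 11.7, 46.5 and 15.4 CPM. In replicate 2, 2615 of the 4338 genes had fewer than 10 counts, against 92 and 442 genes in replicates 1 and 5. A chi-square of the counts gave 1.82, 1.57 and 2.00 per degree of freedom for the 3 pairs of sham libraries, so each pair differed by more than counting error. Across genes, which are not independent replicates, log2 CPM correlated with r = 0.842 between replicates 1 and 2, 0.925 between 1 and 5 and 0.819 between 2 and 5. The 100 highest genes of a library were shared by 86, 89 and 82 in these pairs.

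Footprints were concentrated in few genes. Of the 4338 genes, 454 (10.5%) took 50% of the sham footprints counted here. Only transcripts with at least 101 counts over the 11 libraries had a row, and 1 row was kept for each gene. The shares and the median below therefore refer to these genes and not to every footprint in the tissue. The 10 genes with the highest mean took 6.68% ± 0.373 (SD, n = 3), the highest 100 took 25.97% ± 0.954 and the highest 1000 took 66.3% ± 0.641. By library the highest 100 took 25.8% (95% Wilson interval 25.6% to 25.97%) in replicate 1, 25.1% (24.8% to 25.4%) in replicate 2 and 27.0% (26.8% to 27.2%) in replicate 5. Intervals cover counting error only, since reads made by PCR without molecular identifiers are not independent molecules. A mean of at least 1000 CPM was reached by 146 genes, while the median gene had 110.6 CPM.

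**Figure D1:**
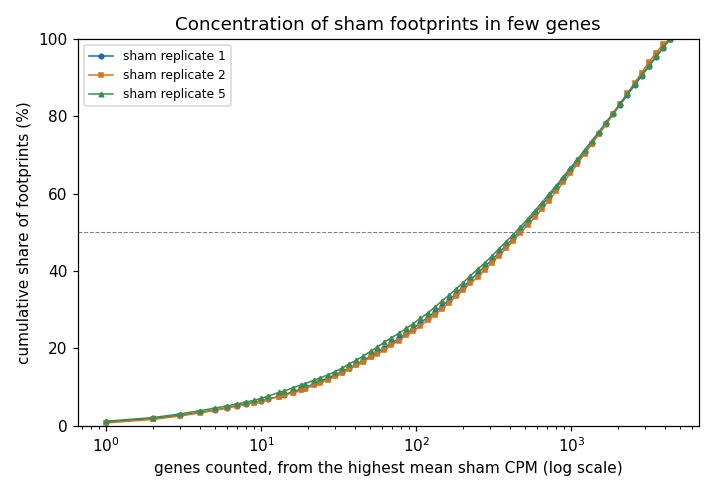
Cumulative share of footprints (%) against the number of genes counted from the highest mean sham CPM (log axis), with 1 line for each sham library and a dashed line at 50%. The 3 lines lie close together and reach 25.1% to 27.0% at 100 genes.

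Secreted and membrane proteins and ubiquitin stood high in the list of genes. Sparcl1 (chr5:104079111-104113733), a protein that astrocytes secrete and that is known to promote synapse formation, had 10376, 7602 and 11908 CPM in replicates 1, 2 and 5. It was the highest gene in replicates 1 and 5 and the fourth in replicate 2, where its Wilson interval, 6960 to 8302 CPM, lay below those of the other 2 libraries (9991 to 10775 and 11436 to 12399 CPM). App (chr16:84949685-85173766), the amyloid precursor protein, had 8673, 8905 and 9385 CPM and varied far less. Sparcl1 averaged 9962 ± 2183 CPM and App 8988 ± 363 CPM, and Sparcl1 was the higher in replicates 1 and 5 and App in replicate 2.

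Ubb (chr11:62551171-62553213), a chain of ubiquitin, the tag that marks proteins for the proteasome, had 7465, 7695 and 8072 CPM and stood at rank 4 by its mean. Psap (chr10:60277627-60302597), the precursor of the lysosomal saposins, had 5615, 6174 and 5831 CPM. Hsp90ab1 (chr17:45567775-45573271), the constitutive cytosolic chaperone, had 5802, 5445 and 5226 CPM. Snap25 (chr2:136713453-136782428), which is part of the complex that fuses synaptic vesicles with the membrane, had 4473, 4096 and 4877 CPM. Clstn1, a calsyntenin of the postsynaptic membrane that docks cargo to kinesin, had 4142, 4716 and 4518 CPM, and Glul, the glutamine synthetase of astrocytes, had 4059.9, 4158 and 4995 CPM. All genes given here with mm10 coordinates are annotated as protein-coding.

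The genes from rank 11 to rank 30 averaged 2749 to 4367 CPM. Among them were the sodium pump subunit Atp1b1, the peptide-processing enzyme Cpe, beta actin (Actb), the clathrin heavy chain Cltc, the brain creatine kinase Ckb, the astrocyte glutamate transporter Slc1a2, the microtubule-associated proteins Map1b, Map1a and Map2, the membrane protein Gpm6a, the glycolytic enzymes Aldoa and Pkm, the elongation factor Eef1a2, the lipoprotein receptor Lrp1, the vesicle protein Syp, the 14-3-3 protein Ywhaz, the lipid carrier Apoe and the dynamin Dnm1. Among the 29 pairs of neighbours in the order of the 30 means, 4 kept their order in all 3 libraries, Hsp90ab1 over Snap25 among them. For the other 25 pairs at least 1 library did not keep the order, so most neighbours in this order were not told apart. Of the 30 genes, 8 had over 20% of the 28-nt words of their coding sequence in transcripts of other genes, so their levels are uncertain: Ubb (82.9%), Hsp90ab1 (24.7%), Glul (57.1%), Actb (49.4%), Ckb (50.9%), Aldoa (46.7%), Pkm (81.5%) and Ywhaz (96.8%). Syt1, the calcium sensor of vesicle release, stood just behind Dnm1, with 2733 against 2749 CPM (Syt1 was added after its value was seen).

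**Figure D2:**
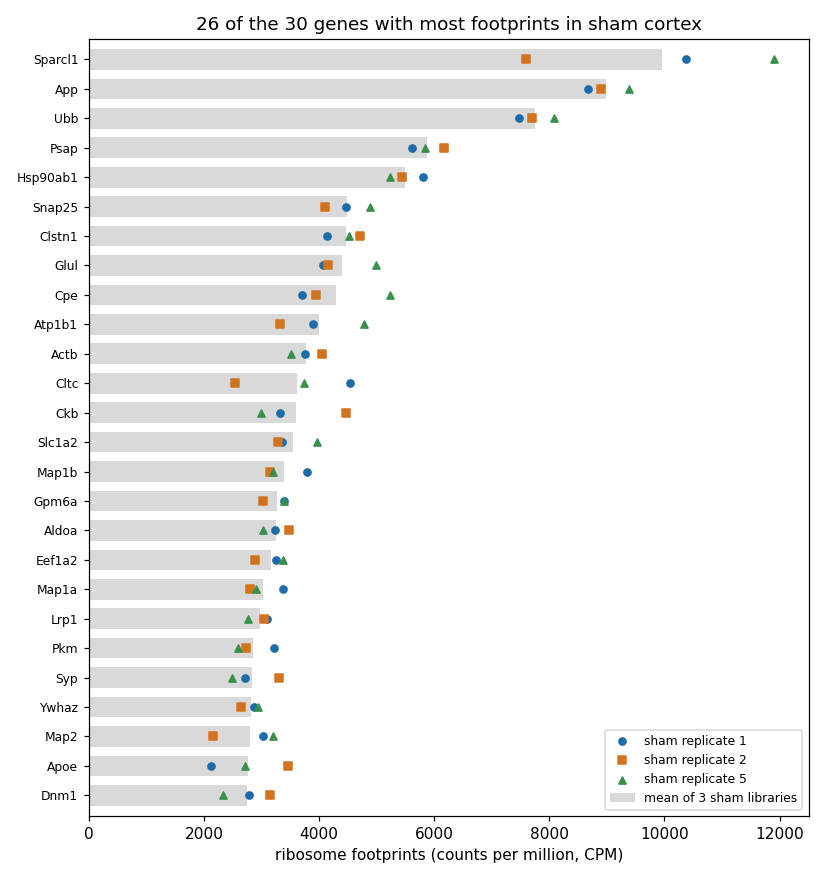
Footprints (CPM) of 26 of the 30 genes with the highest mean over the sham libraries, with grey bars for the mean of 3 libraries and points for replicates 1, 2 and 5. Sparcl1 spreads from 7602 to 11908 CPM, while Ubb and Psap keep close to their means.

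Counting per coding length changed the order. Ubb led with 8463 ± 335 CPM per kb over a coding length of 915 nt. Snap25, at rank 3 per kb, had 7252 ± 632 CPM per kb. The neuropeptide Cck, the postsynaptic calmodulin-binding protein Nrgn and the metal-binding protein Mt1, with coding lengths of 345, 234 and 183 nt, stood at ranks 4, 6 and 7 per kb with 5594 ± 853, 5030.5 ± 1027 and 4836 ± 642 CPM per kb. By plain CPM they were only at ranks 56, 112 and 180. The first 15 also held Sparcl1, App, Atp1b1, Glul, Gpm6a, Ywhaz, Ywhag, Calm2 and the calcium-binding protein Vsnl1, at 3574 to 5109 CPM per kb, against a median of 89.6 CPM per kb over the 3751 genes with at least 30 sham counts and a coding length.

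Genes with long coding sequences ranked lower per kb. Lrp1, with a coding length of 13635 nt, was at rank 24 by CPM and at rank 843 per kb (218 ± 12.8 CPM per kb). Map1a went from rank 23 to 518, Map1b from 19 to 347, Map2 from 28 to 296 and Cltc from 16 to 199. Of the 30 highest genes by CPM, 9 were also among the 15 highest per kb. When the length of the whole transcript was used in place of the coding length, only 5 of the 15 remained (Ubb, Sparcl1, App, Cck and Snap25), so the order per length depends on which length is taken.

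**Figure D3:**
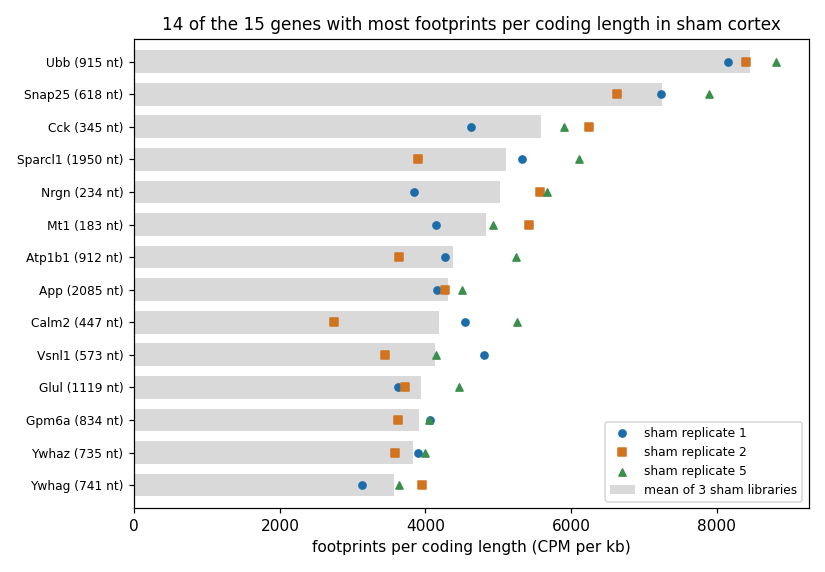
Footprints per coding length (CPM per kb) of 14 of the 15 highest genes, with the coding length in nt beside each name, grey bars for the mean of 3 sham libraries and points for the libraries. Ubb and Snap25 stand highest of those shown, and replicate 2 is the lowest point for Calm2 and Sparcl1.

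To see which functions took most footprints, 1033 genes were placed in 33 lists, each gene in 1 list, and 899 of them had a row in the table. Together they took 45.8% ± 1.09 of sham footprints and held 79 of the 100 highest genes. Synaptic vesicle release and recycling took the largest share, 3.89% ± 0.0864, followed by cell adhesion and extracellular matrix (3.39% ± 0.134), ion gradient pumps and exchangers (3.19% ± 0.267), iron, lysosome and lipid carriers (2.51% ± 0.118) and calcium signalling with calmodulin (2.43% ± 0.142). Shares of lists with different numbers of genes are a description of where ribosomes were and no measure of level per gene. The medians per kb give another order, in which tubulins (751 CPM per kb), glycolysis (614), granins and neuropeptides (597) and the vacuolar proton pump (563) led.

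**Figure D4:**
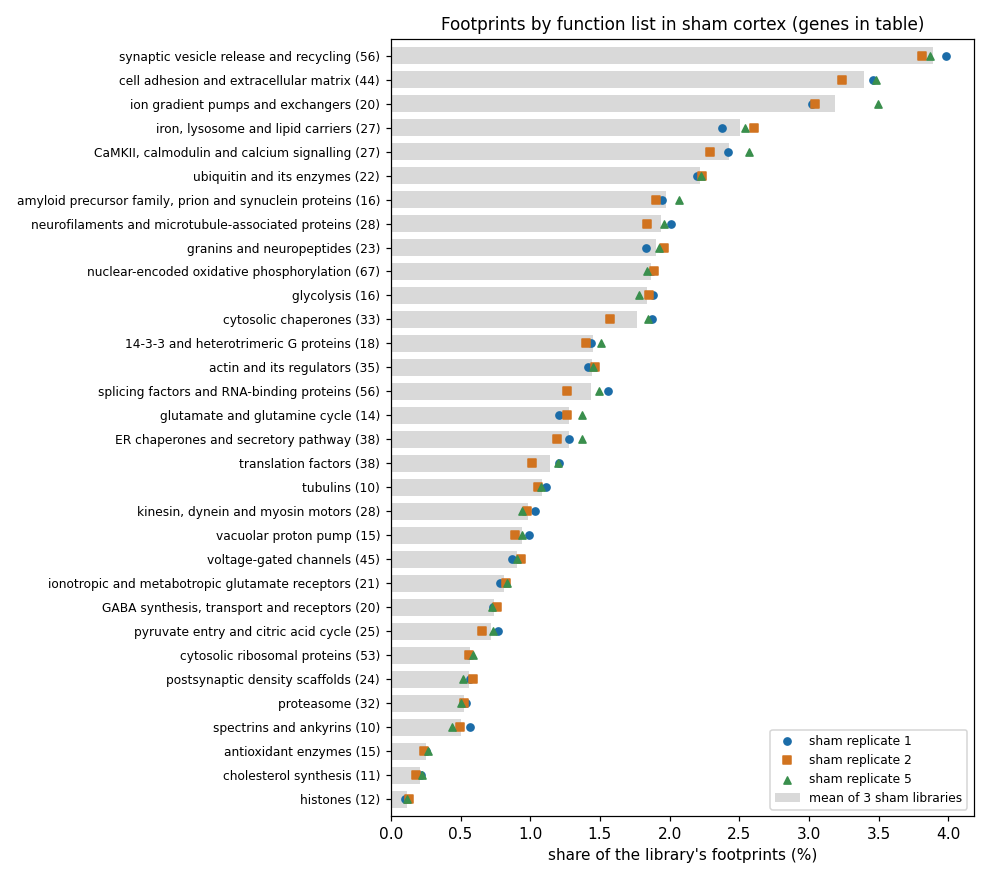
Share of each sham library's footprints (%) taken by 32 function lists, with the number of genes in the table in parentheses, grey bars for the mean of 3 libraries and points for the libraries. Synaptic vesicle genes stand highest in each library, at 3.81% to 3.98%, and histones lowest.

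The synaptic vesicle list had 56 of 59 genes in the table, of which 7 were among the 100 highest. It took 3.98% (3.91% to 4.06%), 3.81% (3.67% to 3.96%) and 3.87% (3.79% to 3.96%) of footprints in replicates 1, 2 and 5, and the Wilson intervals overlapped. Snap25 alone held 11.5% of the list. Clathrin and dynamin, which pull vesicle membrane back into the cell, followed with 4531, 2544 and 3744 CPM for Cltc and 2774, 3149 and 2323 CPM for Dnm1. Syp, a protein of the vesicle membrane, had 2712, 3304 and 2477 CPM. Cltc was lowest in replicate 2, while Syp and Dnm1 were highest there, so members of the list differed in which library was highest. The median member had 413 CPM, against 110.6 CPM for all genes. The postsynaptic density took 0.559% ± 0.0348 with 24 of 29 genes and none among the 100 highest, and its median per kb, 51.4 CPM per kb, was below that of all genes.

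Calcium signalling held 27 of 28 genes. Calm2 had 2034, 1226 and 2349 CPM and Calm3 (added after its value was seen) 1044, 884 and 1318 CPM, and each was lowest in replicate 2. Camk2a, the kinase that calmodulin activates at synapses, had 2034, 2622 and 2513 CPM, and the neuronal protein Ncdn had 2462, 3459 and 2221 CPM. For both, replicate 1 or 5 and not replicate 2 was the lowest library, while the calcium-binding protein Vsnl1, with 2755, 1970.2 and 2374 CPM, was again lowest in replicate 2. The whole list took 2.42% (2.36% to 2.48%), 2.29% (2.17% to 2.40%) and 2.57% (2.50% to 2.64%) of footprints in replicates 1, 2 and 5, so it was lowest in replicate 2, with an interval below that of replicate 5.

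Ion pumps took 3.02% (2.95% to 3.09%), 3.05% (2.92% to 3.18%) and 3.49% (3.41% to 3.58%) of footprints, and replicate 5 lay above both others. Atp1b1, the beta subunit of the sodium pump, had 3892, 3319.8 and 4779.6 CPM. Atp2a2, which pumps calcium into the endoplasmic reticulum, had 2712, 2467 and 2989.8 CPM. The proton pump that acidifies vesicles and lysosomes took 0.942% ± 0.0488 with 15 of 18 genes, led by Atp6v0c with 1270.2, 1086 and 1456 CPM. Voltage-gated channels were spread thinly. Their 45 genes took 0.902% ± 0.0310, none was among the 100 highest, and the first of them, the sodium channel Scn2a, had 966, 838 and 918 CPM.

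Glycolysis, with 16 of 16 genes in the table, took 1.84% ± 0.0522 and had a median of 614 CPM per kb, against 394 CPM per kb for oxidative phosphorylation and 195 CPM per kb for the citric acid cycle. In plain CPM, which also counts length, the medians were 1005, 193 and 157 CPM per gene. Aldoa had 3234, 3475 and 3031 CPM, Pkm 3207, 2730.3 and 2595 CPM, the astrocyte aldolase Aldoc 1979, 1520.3 and 2687 CPM and the neuronal enolase Eno2 1652, 1862 and 1436 CPM. The lowest member was Gapdh (named after its value was seen), with 44, 16 and 37 counts and a mean of 203 ± 40.1 CPM. Of the 28-nt words of its coding sequence, 94.3% also occur in transcripts of other genes, and its main partner was the copy Gm7336. For Pgk1, of which 100% of the words occur elsewhere, the counts were 84, 12 and 60, while its copy Pgk1-rs7 had 257, 44 and 212 (both named after their values were seen). Levels of such genes are uncertain, since no source used here tells how reads that match several copies were counted. Of the 16 glycolysis genes, 10 had over 20% of their words in another gene. So did 30 of the 67 oxidative phosphorylation genes and 4 of the 25 citric acid cycle genes. How much this lowered or raised a level was not tested.

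The mitochondrial steps were represented by nuclear genes only. Oxidative phosphorylation took 1.87% ± 0.0261 with 67 of 71 genes, led by the ATP synthase subunits Atp5b (2759, 2482 and 2108 CPM) and Atp5a1 (1523, 1582 and 1246 CPM), with the cytochrome oxidase subunits Cox4i1 and Cox8a at 845 ± 37.1 and 505 ± 69.0 CPM. The citric acid cycle list took 0.719% ± 0.0587, led by Mdh1 (1866, 1443 and 1759 CPM), the malate dehydrogenase of the cytosol, and the citrate synthase gene Cs had 525 ± 67.2 CPM. None of the 13 genes encoded by the mitochondrial genome had a row in the table.

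Proteins of the cytoskeleton filled several lists. The neurofilament and microtubule-associated list took 1.94% ± 0.0877, with Map1b at 3795, 3149 and 3200.1 CPM, Map1a at 3378, 2792 and 2903 CPM and Map2 at 3016, 2156 and 3195 CPM, and Stmn1, a small protein that takes tubulin out of microtubules, at 1266 ± 171 CPM. The 10 tubulin genes in the table took 1.08% ± 0.0294 and had the highest median per kb of all lists. Their alpha genes summed to 4396 ± 8.85 CPM and their beta genes to 6420 ± 300.4 CPM. The SD of the alpha sum is below the 15.5 CPM of 1 count in replicate 2, so it does not measure how much these genes vary. Tuba4a, Tubb2a, Tubb4a and Tubb5 led with means of 1543, 1463, 1428 and 1207 CPM. The 10 genes shared a median of 73.8% of their 28-nt words with other genes and 6 of them were over 20%, Tubb2a (70.0%) among them, so their levels are uncertain. Actin and its regulators took 1.45% ± 0.0254, led by Actb (3752, 4049 and 3508 CPM) and the filament-severing Cfl1 (1804, 1784 and 1969 CPM). Motors took 0.985% ± 0.0468, led by Kif1a, a kinesin of axonal vesicle transport, with 1594, 2001 and 1410.3 CPM. Spectrins and ankyrins took 0.502% ± 0.0634, and Sptan1 held 43.5% of that.

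Several lists held genes of the secretory route. Granins and neuropeptides took 1.90% ± 0.0641 with 23 of 26 genes. Cpe, which trims peptide precursors, had 3709, 3940.4 and 5226 CPM, the granin Chgb 2159, 1691 and 2062 CPM, Cck 1597, 2156 and 2036 CPM and the convertase Pcsk2 1368, 1427 and 1451 CPM. The amyloid, prion and synuclein list took 1.97% ± 0.0838, and App held 45.6% of it. Its relatives Aplp2 and Aplp1 had 1979, 1691 and 2272 and 2049, 2001 and 1856 CPM, and Itm2b, another membrane protein linked to amyloid, had 1874, 2141 and 2436 CPM. Calr, a calcium-binding chaperone of the endoplasmic reticulum, led the list of that compartment (1.28% ± 0.0898) with 1929, 1567 and 2241 CPM. Among lysosomal and lipid carriers, Psap was followed by Lrp1, Apoe and Clu, with 3094, 3041 and 2769 CPM for Lrp1, 2112, 3459 and 2708 CPM for Apoe and 1897, 2063 and 2682 CPM for Clu. Apoe is made mainly by astrocytes in cortex. Apoe and Clu were both lowest in replicate 1.

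Of the footprints of adhesion and matrix genes, Sparcl1 held 29.4%. Without the 10 most variable genes, Sparcl1 among them, the share of the list was 2.44%. Nrcam, Ncam1 and Nptn, adhesion molecules of neurons, followed with means of 1352 ± 159, 1307 ± 50.6 and 1292 ± 109.9 CPM.

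In each library the ubiquitin list took more footprints than the proteasome list. Ubiquitin and its enzymes took 2.22% ± 0.0178, and Ubb held 34.9% of this list. The Wilson interval of replicate 2 alone, 2.12% to 2.35%, was wider than this SD. Of the 28-nt words in the coding sequence of Ubb, 82.9% also occur in another gene, chiefly the copy Gm1821, so the level of Ubb is uncertain. The deubiquitinating enzyme Uchl1, abundant in neurons, had 1368, 1629 and 789.8 CPM, and the activating enzyme Uba1 1091, 1117 and 1092 CPM. The proteasome took 0.523% ± 0.0177 with 32 of 34 genes, none among the 100 highest, and its first member Psmd2 had 429.7 ± 32.7 CPM. Cytosolic chaperones took 1.76% ± 0.165, led by Hsp90ab1, with Hsp90aa1 at 2868, 1924 and 3113 CPM and Hspa8 at 2427, 1753 and 2744 CPM. Both shared over 90% of their words with other genes (92.8% and 95.5%).

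The machinery of translation itself took few footprints in this table. Cytosolic ribosomal proteins took 0.569% ± 0.0159, 0.562% (0.534% to 0.592%), 0.559% (0.504% to 0.619%) and 0.588% (0.555% to 0.623%) by library, with 53 of 78 genes in the table and none among the 100 highest. The first, Rpl4, had 483, 481 and 472 CPM and stood at rank 378, and Rpl8, Fau and Rps3 followed with 263 ± 16.6, 192 ± 35.8 and 187 ± 29.1 CPM. Their median was 91.2 CPM per gene, below the 110.6 CPM of all genes, though the median per kb (215 CPM per kb, 46 genes) was above the 89.6 CPM per kb of all genes. The members had a median of 96.7% of their 28-nt words in common with other genes, and 51 of the 53 were over 20%. The part of such copies in the low total was not tested. Translation factors took 1.14% ± 0.109, led by Eef1a2, the elongation factor form of neurons, with 3242, 2885 and 3364 CPM. Eef2 and Eef1a1 had 1313, 1272 and 1338 and 1294, 1132 and 1287 CPM, and 89.4% of the words of Eef1a1 occur in other genes. Splicing factors and RNA-binding proteins took 1.44% ± 0.154 with 56 of 59 genes, led by Ddx5 (1636, 838 and 1518 CPM), and histones took 0.117% ± 0.0149. Of the 12 histone genes in the table, 10 had over 20% of their words in other genes, as did 21 of the 56 splicing and RNA-binding genes.

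Genes that supply and clear glutamate were counted apart from its receptors. The glutamate and glutamine cycle took 1.28% ± 0.0850 with 14 of 20 genes. Glul held 34.4% of it, Slc1a2 had 3359, 3289 and 3969 CPM, the second astrocyte transporter Slc1a3 997, 884 and 1185 CPM and the vesicular transporter Slc17a7 1048, 1536 and 1026 CPM. Glutamate receptors took 0.814% ± 0.0282 with 21 of 29 genes. The NMDA receptor subunit Grin1 had 1695, 1846 and 1959 CPM, and the AMPA receptor subunits Gria2 and Gria3 had 1064 ± 250.5 and 665 ± 38.8 CPM. GABA synthesis, transport and receptors took 0.741% ± 0.0194 with 20 of 20 genes, among them the receptor Gabbr1 (1048, 1179 and 1077 CPM). Gad1, which makes GABA, had 613 ± 38.6 CPM. The 14-3-3 and G protein list took 1.45% ± 0.0531, with Ywhaz (2864, 2637 and 2933 CPM, 96.8% of words shared), Ywhag (2314, 2932 and 2697 CPM) and Gnas (1983, 2094 and 2344 CPM) at its head.

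At the low end stood antioxidant enzymes (0.251% ± 0.0121, 15 of 22 genes) and cholesterol synthesis (0.208% ± 0.0245, 11 of 19 genes). Their first members were the glutathione transferase Gstm1 with 413, 186 and 395 CPM and the pathway's entry enzyme Hmgcs1 with 962, 714 and 918 CPM. Gstm1 was low in replicate 2, at 12 counts, and Hmgcs1 held 41.6% of its list.

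Partner subunits, sister forms and the astrocyte genes Glul and Slc1a2 could be compared per coding length within each library. The subunits beta and alpha of ATP synthase, which join in equal numbers, stood at 1.77 ± 0.127, and the B2 and A subunits of the vacuolar pump, also equal in number in the complex, at 1.33 ± 0.112. All 3 libraries were above 1 for each of these pairs. Eef1a2 stood over Eef1a1 at 2.55 ± 0.0541, Mdh1 over Mdh2 at 3.47 ± 0.0769, Glul over Slc1a2 at 1.91 ± 0.0467 and Actb over Actg1 at 3.23 ± 0.152. The SDs of these ratios over the 3 sham libraries were small, although Mdh2, for one, had only 143, 27 and 98 counts. Counting error at such depth allows a wider spread, so the small SDs do not show that the ratios were fixed. In the other 8 libraries these ratios ran, in the same order, from 1.80 to 3.31, 2.51 to 4.45, 1.15 to 1.88 and 3.16 to 3.89. Hsp90ab1 stood over Hsp90aa1 at 2.20 ± 0.599. Aldoa over Aldoc was 1.42, 1.98 and 0.979, so the order of these aldolases changed between libraries, and Ywhaz over Ywhag was 1.25, 0.907 and 1.10. Sequence copies bear on several of these values: 100% of the words of Actg1, 89.4% of Eef1a1 and 92.8% of Hsp90aa1 occur in other genes. For Glul it was 57.1% and for Ywhaz 96.8%.

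Sequence features of the ranks are given as a description across genes, with no test. The G and C content at the last base of codons had a median of 66.2% (quartiles 56.7% and 71.3%) in the 100 highest genes, 62.9% in ranks 101 to 500, 60.8% in ranks 501 to 1000, 61.9% in ranks 1001 to 2000 and 58.9% from rank 2001 on, against 60.5% (51.0% and 68.3%) over the 4255 genes with a coding sequence read. Coding length varied little with plain CPM, with medians of 1467 nt in the 100 highest genes and 1563 nt in all genes. Per kb it varied more, with a median of 738 nt in the 100 highest genes per kb against 1617 nt in the other 3651. Division by length sets part of that difference by itself.

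Markers of cell types were read to check the label of cortex. Of the astrocyte markers, 15 of 16 had a row and took 1.67% ± 0.189, with Glul, Slc1a2 and Aldoc first. Excitatory neuron markers (9 of 10 in the table) took 0.639% ± 0.0711, among them Camk2a, Slc17a7, Nrgn and Sv2b (1050.3 ± 188 CPM). Inhibitory neuron markers (9 of 12) took 0.467% ± 0.0568, with Cck, which excitatory neurons of the cortex also make and which held 41.3% of the list, Sst (892, 1195 and 1133 CPM), Gad1 and Slc32a1 (283 ± 159.6 CPM) first. Of the markers of cortical layers 11 of 19 had a row (0.161% ± 0.0127), with Lamp5 at 562 ± 126 CPM, Calb1 at 292 ± 20.2 CPM and Tbr1, a transcription factor of deep-layer excitatory neurons, at 192 ± 52.8 CPM. The layer markers Fezf2, Bcl11b, Foxp2 and Cux1 were without a row.

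Markers of other cell types took smaller shares. Oligodendrocyte markers (8 of 13) took 0.235% ± 0.0354, among them the myelin genes Cnp (344 ± 82.6 CPM) and Mbp (248 ± 56.5 CPM), and microglia markers (9 of 13) took 0.109% ± 0.0145, among them Csf1r (187, 62.1 and 205 CPM). Of 15 endothelial and pericyte markers 3 had a row, and Bsg, which other cells also make, held 76.6% of their counts, while Cldn5, Pecam1 and Flt1 were without one. Blood was seen through 4 globin genes, which took 0.111% ± 0.0206 and shared a median of 94.0% of their words. Striatal markers (6 of 14) took 0.104% ± 0.0279, with Penk at 452, 388 and 195 CPM and Ppp1r1b at 222, 310.3 and 226 CPM, while Drd1, Drd2 and Adora2a had no row. None of the 7 choroid plexus markers had a row, Ttr included, and 2 of 11 hippocampal and thalamic markers did, Wfs1 and Slc17a6. A gene without a row had fewer than 101 counts over all 11 libraries in any transcript or was not listed for another reason.

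Immediate early genes, which neurons switch on within minutes of activity, differed between sham libraries. The 12 of 24 genes in the table took 0.238% (0.220% to 0.257%), 0.203% (0.171% to 0.241%) and 0.127% (0.112% to 0.144%) of footprints in replicates 1, 2 and 5. Egr1 had 631, 543 and 195 CPM and Arc 413, 217 and 108 CPM, and replicate 5 was the lowest for both. Junb had 296, 155 and 149 CPM. Its replicates 2 and 5 differed by less than the 15.5 CPM of 1 count in replicate 2, so they were not told apart. Homer1 had 113, 171 and 149 CPM, and replicate 1 was its lowest library. Surgery days differ between these libraries, so the day and the animal cannot be told apart.

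Variation between sham libraries exceeded counting error, with a chi-square of 1.57 to 2.00 per degree of freedom for the pairs of libraries. Over the 2402 genes with a mean of at least 100 CPM, the SD was a median of 1.07 times the SD expected from counting alone. An SD taken over so few libraries falls low for most genes. The median of 1.07 therefore does not show that the median gene varied by counting error only. Among the 10 genes with the largest ratio were Sycp1, Rfx2, Diaph2, Pcnx, Glycam1, Sparcl1, Igsf10, Hnrnpa0 and Trpm8, and in 8 of the 10 replicate 2 was far above the others. Sycp1, a protein of paired meiotic chromosomes, had 9, 121 and 1 counts, or 35.1, 1877 and 5.13 CPM. Rfx2, a transcription factor of ciliated cells, had 43, 83 and 10 counts, or 168, 1288 and 51.3 CPM. Diaph2, an actin regulator, had 54.5, 683 and 20.5 CPM, and Trpm8, the cold receptor of sensory nerves, 93.5, 388 and 61.5 CPM. Sparcl1 was an exception, being lowest in replicate 2. Replicate 2 is also the shallowest sham library, and the part of depth in these values was not tested. Rfx2 also ran from 36.0 to 1936 CPM in the contralateral and from 83.6 to 17979 CPM in the ipsilateral libraries, where it was the highest gene of replicate 6.

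**Figure D5:**
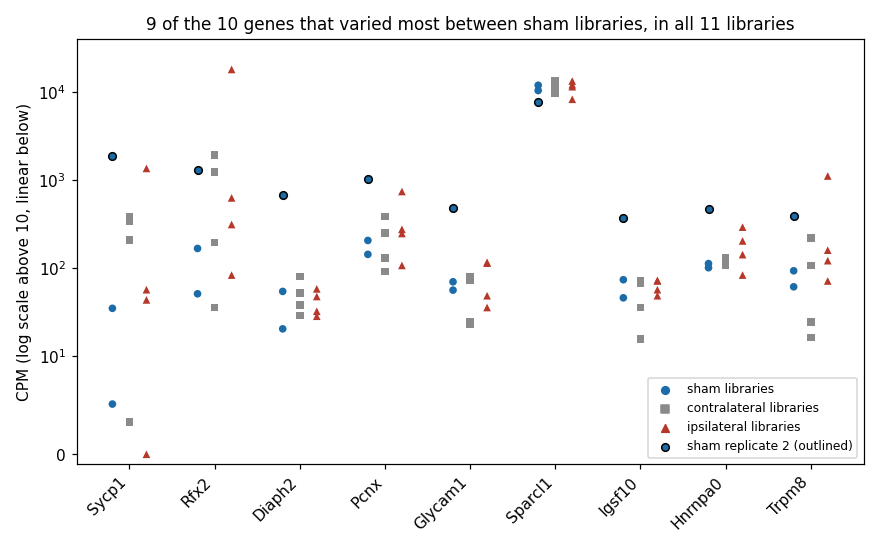
CPM (log axis above 10, linear below) of 9 of the 10 genes that varied most between sham libraries relative to counting error, in all 11 libraries, with sham replicate 2 outlined. Replicate 2 is the highest sham point for 8 of the genes shown and the lowest for Sparcl1.

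The baseline was then set beside the cortex of the operated animals. The 100 genes highest in sham were chosen by the sham values that enter both comparisons, so what follows describes them. They took 26.2% ± 1.05 of contralateral footprints (n = 4) and 25.5% ± 1.18 of ipsilateral ones (n = 4), against 25.97% ± 0.954 in sham. By group means, 91 of the 100 were among the 100 highest in contralateral cortex and 88 in ipsilateral cortex. In edgeR's quasi-likelihood test with Benjamini-Hochberg adjustment over 3807 genes, 0 of these 100 genes passed in either comparison, in either direction. The background was 0% of all genes higher and 0% lower in contralateral cortex, and 0.105% higher and 0% lower in ipsilateral cortex, so the count among the 100 says nothing particular about them. At an unadjusted p under 0.05 stood 5 of the 100 (5.00%) against 213 of all genes (5.59%) in contralateral cortex, and 6 (6.00%) against 294 (7.72%) in ipsilateral cortex. DESeq2 called 0 of the 100 in contralateral and 1 in ipsilateral cortex, against 2 and 6 of the 3807 genes in all.

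The median log2 change of the 100 genes was 0.03 for contralateral over sham and -0.05 for ipsilateral over sham, comparisons that share the sham libraries, beside 0.01 and -0.00019 for all genes tested. The largest in contralateral cortex were -0.43 ± 0.15 (SE) for Ncdn and 0.44 ± 0.16 for Slc1a2 (edgeR adjusted p = 0.745 for both). In ipsilateral cortex the largest decrease was -0.62 ± 0.17 for the calcineurin subunit Ppp3ca (named after its value was seen, edgeR adjusted p = 0.116), and without ipsilateral replicate 5 Ppp3ca passed. A p that misses the threshold does not show that a level was the same.

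Outside the highest 100, 4 of the 3807 genes rose in ipsilateral cortex, and their sham levels were as follows. The stress-induced chaperone Hspa1a had 70.1, 139.6 and 87.2 CPM in sham, at rank 2423, against 1636 to 5133 CPM in the ipsilateral libraries (log2 change 5.29 ± 0.50, edgeR adjusted p = 0.00295). Its near copy Hspa1b, of whose words 89.4% occur in other genes, chiefly Hspa1a, had 77.9, 139.6 and 87.2 CPM. How reads that match both copies were counted is not known, so Hspa1a and Hspa1b are not separate findings. Hspa5, the chief chaperone of the endoplasmic reticulum, had 1099, 962 and 1195 CPM and was already at rank 128 in sham, against 1646 to 2102 CPM (0.79 ± 0.16, adjusted p = 0.0083). Prg4, a secreted lubricating glycoprotein on the list of meningeal markers, had 8, 1 and 8 counts in sham, a mean of 29.2 CPM. In the ipsilateral libraries it had 71.6 to 324.7 CPM (2.62 ± 0.44, edgeR adjusted p = 0.00295). The ipsilateral libraries lay above the sham libraries for all 4 genes. Without sham replicate 1 none of the 4 passed, and with the replicate block 3 did (Hspa5 at adjusted p = 0.0875). In contralateral cortex DESeq2 called 2 genes lower, Egr1 and Fos, and edgeR called Egr1, Fos and Nr4a1 lower without sham replicate 5 (Fos and Nr4a1 named after their values were seen). Fos had 159.7, 171 and 35.9 CPM in the sham libraries and 7.28 to 32.7 CPM in the contralateral ones, and sham replicate 5 lay closest to these.

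The shares of cell type markers stood as follows beside these comparisons, as contralateral and ipsilateral means ± SD against sham. Oligodendrocyte markers took 0.229% ± 0.0338 and 0.419% ± 0.146 against 0.235% ± 0.0354, and microglia markers 0.132% ± 0.00549 and 0.178% ± 0.021 against 0.109% ± 0.0145. The meningeal list that holds Prg4 took 0.0224% ± 0.00235 and 0.0363% ± 0.018 against 0.0192% ± 0.00665. Blood markers took 0.0691% ± 0.0192 and 0.142% ± 0.0419 against 0.111% ± 0.0206, so they were lower in contralateral and higher in ipsilateral cortex by their means. Immediate early genes, the list of Egr1 and Fos, took 0.102% ± 0.0203 and 0.196% ± 0.077 against 0.189% ± 0.0565. Striatal markers took 0.0611% ± 0.0308 and 0.0623% ± 0.0228 against 0.104% ± 0.0279. Astrocyte markers took 1.92% ± 0.19 and 1.73% ± 0.0523 against 1.67% ± 0.189, excitatory neuron markers 0.624% ± 0.101 and 0.580% ± 0.0815 against 0.639% ± 0.0711, and inhibitory neuron markers 0.457% ± 0.0293 and 0.505% ± 0.0157 against 0.467% ± 0.0568. Endothelial markers took 0.120% ± 0.0139 and 0.125% ± 0.0216 against 0.123% ± 0.0160, markers of cortical layers 0.173% ± 0.00676 and 0.151% ± 0.0116 against 0.161% ± 0.0127, and hippocampal and thalamic markers 0.0367% ± 0.00252 and 0.0374% ± 0.0126 against 0.0386% ± 0.00307. Among the genes of these lists edgeR called Prg4 alone. DESeq2 called Prg4 and 1 other of them higher in ipsilateral cortex, and Egr1 and Fos lower in contralateral cortex. The part of the marker shares in the differences between groups was not tested.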

How the data were processed

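The authors deposited whole-number counts of footprints, 1 row for each Ensembl transcript. Per the submitters' processing notes, Bowtie2, edgeR and mm10 were used, with no role or version stated. What counted the reads, on which annotation, with which strand setting and filters, is not given in the sources used here. Its 9784 rows each sum to at least 101 counts over the 11 libraries, and 9736 of them matched the GENCODE vM21 annotation of mm10. The other 48 held 0.308% of sham counts and were left out. For each of 4338 genes, the row with the most counts over all libraries was kept. Of these, 57 were pseudogenes (0.890% ± 0.0548 of sham footprints). 

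CPM are counts divided by the library's total. CPM per kb used the coding length and genes with at least 30 sham counts. Shared sequence is the percentage of a coding sequence's 28-nt words that occur in a transcript of another gene. Contrasts were fitted to all 11 libraries in 3 groups with edgeR 4.0.16 in R 4.3.3 (filterByExpr with a minimum count of 10, TMM factors of 0.974 to 1.02, robust quasi-likelihood F test, Benjamini-Hochberg threshold 0.05). DESeq2 1.42.0 was an alternative. Tested on simulated data for contralateral against sham (3641 genes), the fit recovered 96 of 97 genes changed 4-fold and 59 of 95 changed 2-fold, with 8 false calls. The simulation gave every gene the same spread beyond counting (dispersion 0.0291). Its recovery therefore does not hold for genes that vary more between libraries.

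Replicate numbers pair libraries by day of surgery, per the series' design text. Deviations from group means correlated with r from -0.137 to 0.225 (median 0.134) in 7 same-number pairs of libraries and from -0.256 to 0.262 (median -0.0294) in 33 other pairs.

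Named genes are the 30 highest by mean CPM, the 15 highest per kb, the first 4 of each list, the 10 most variable relative to counting among genes of at least 100 CPM, the genes called, and markers said to be without a row. The lists and this rule were chosen with earlier results of these data known. Some genes that meet this rule are not reported here, in the text or the plots.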

Additional observations from a re-analysis of the deposited data

Results flagged for a closer look

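In groups of 4 libraries, 56 values were examined for a library that stands apart from the other 3 (Dixon's test at 95%), and 4 were found. Chance flags about 1 in 20 groups. The sham group, with 3 libraries, was not examined. Rfx2 had 17978.5 CPM in ipsilateral replicate 6 against 83.6 to 627 CPM in the other ipsilateral libraries. Sycp1 had 1355.49 CPM in the same library against 0 to 57.0 CPM. Trpm8 had 1112.19 CPM in ipsilateral replicate 4, the shallowest library, against 71.6 to 160 CPM. All 3 genes were among the 10 that varied most between sham libraries. The synaptic vesicle list took 3.86694% of footprints in contralateral replicate 5 against 3.73% to 3.75% in the other contralateral libraries, a gap smaller than the range of the sham libraries.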

How the results depend on the processing

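The share of the 100 highest genes changed little with the processing, and the 5 highest lists stayed the same under 6 of the 7 alternatives run. Without 1 sham library the share was 25.5% to 26.5%, and 94 to 96 of the 100 genes remained. Synaptic vesicle genes stayed the highest list under each of the 7. Scaling by TMM, or keeping unmatched rows in the total, multiplies all genes of a library by the same factor. Neither can reorder the lists within a library. With TMM-scaled CPM, 2 of 32 list shares moved by more than their SD (oxidative phosphorylation and ubiquitin). Without the 10 most variable genes, an alternative chosen after seeing the data, 4 moved, the order of the leading lists changed, and 4 of the 5 highest lists remained: cell adhesion took 2.44%, below ion pumps (3.24%) and lipid carriers (2.55%), and calcium signalling 2.09%, below ubiquitin (2.25%). App took the first rank in place of Sparcl1. The number of genes called in contralateral cortex was 0 in edgeR (213 at an unadjusted p under 0.05), 2 in DESeq2, and 0 to 3 when 1 library was left out, the 3 arising without sham replicate 5. The number in ipsilateral cortex was 4, and 0 to 22 when 1 library was left out: 0 without sham replicate 1 and 22 without ipsilateral replicate 5. DESeq2 called 6 there. The cause was not tested. With the replicate block the counts were 0 and 3, and the block changed no other call. Without the 2 shallowest libraries (chosen after seeing the data) the ipsilateral count was 4, of which 2 were shared with the 4 above. Depth limits genes under about 46.5 CPM in sham replicate 2, where a level cannot be told from 0 to 3 counts.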

Other observations

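Some of the genes with most footprints stood in none of the lists. The reticulon Rtn1, a protein of the endoplasmic reticulum of neurons, had 2318, 2869.95 and 2815 CPM in sham replicates 1, 2 and 5. The tetraspanin Tspan7 had 2525, 2467 and 2810.3 CPM, or 3481 ± 246 CPM per kb. Clstn3, a calsyntenin like Clstn1, had 2279, 2327 and 2426 CPM. These 3 genes were chosen after their values were seen; Rtn1 was lowest in replicate 1 and Tspan7 highest in replicate 5. Of the 100 highest genes, 21 were in no list.

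In 18 of the 32 lists the same gene led by plain CPM and by CPM per kb of coding length, and in 14 the leader differed. In 4 lists, chosen after their values were seen, the highest per kb were Ndufa4 (2740 CPM per kb) in oxidative phosphorylation, Atp6v0c (2733 CPM per kb) in the vacuolar proton pump, the dynein light chain Dynll2 (1264 CPM per kb) among motors and Rps29 (691 CPM per kb) among ribosomal proteins. The genes leading the same lists by plain CPM were Atp5b, Atp6v0c, Kif1a and Rpl4, so only the vacuolar pump had the same leader by both measures among these 4 lists.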
